A study of Mus musculus with 6 samples.

Results

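Serpina1f, Cenpj and Ehmt1 are 3 protein-coding genes with many reads in the RNA of small extracellular vesicles and with lower values in every OGD/R library than in every control library. They were taken by symbol, as 3 of 53379 listed genes and 3 of 20333 protein-coding genes whose reads could be recovered. Such vesicles are small membrane sacs shed by cells, with RNA among their cargo. The vesicles came from primary cultures of embryonic cortical neurons of wild-type (WT) mice. The tested libraries were 3 with the treatment label OGD/R, and the others were 3 with the label control. Elsewhere the series speaks of HypEV and NorEV, from hypoxia and normoxia, and HypEV is taken here to mean the OGD/R libraries. Nothing else separates the groups in the labels. The labels do not spell out OGD/R and do not say how vesicles were isolated, how many animals were used or whether replicates were separate cultures.

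Serpina1f belongs to clade A of the serpins, protease inhibitors that trap their target enzyme by a change of shape. Its best-known relative is alpha-1-antitrypsin of the liver, and Serpina1f itself is known in mice from the epididymis. Cenpj, also called CPAP, binds tubulin and sets the length of centrioles, the barrels at the core of centrosomes and cilia; in humans its loss causes primary microcephaly, through the divisions of neural progenitors. Ehmt1, also called GLP, pairs with Ehmt2 (G9a) to place methyl groups on lysine 9 of histone H3 (H3K9), a mark of silenced genes, and in humans the loss of a copy causes Kleefstra syndrome with intellectual disability.

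The promoters are shown so that the starts of the 3 genes can be compared. Each run has 300 bases, from 250 before to 50 after the RefSeq start, on build GRCm38.p6, read 5′ to 3′ on the strand of the gene. Capitals mark ACGTG or GCGTG on either strand (CACGT or CACGC in the run as printed), the core that hypoxia-inducible factors bind.
Serpina1f, chr12:103695480-103695779, minus strand: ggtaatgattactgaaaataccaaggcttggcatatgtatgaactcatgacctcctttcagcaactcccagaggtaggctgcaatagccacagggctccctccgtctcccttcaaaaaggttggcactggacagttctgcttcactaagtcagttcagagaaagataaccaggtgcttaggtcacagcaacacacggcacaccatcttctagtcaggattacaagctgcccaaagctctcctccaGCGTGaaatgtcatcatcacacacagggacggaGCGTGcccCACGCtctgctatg
Cenpj, chr14:56571797-56572096, minus strand: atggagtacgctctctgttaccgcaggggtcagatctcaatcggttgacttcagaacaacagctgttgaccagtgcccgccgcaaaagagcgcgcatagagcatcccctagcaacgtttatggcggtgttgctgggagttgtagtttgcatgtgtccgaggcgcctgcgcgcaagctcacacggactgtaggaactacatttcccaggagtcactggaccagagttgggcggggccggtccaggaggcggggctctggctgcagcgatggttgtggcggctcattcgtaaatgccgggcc
Ehmt1, chr2:24919560-24919859, minus strand: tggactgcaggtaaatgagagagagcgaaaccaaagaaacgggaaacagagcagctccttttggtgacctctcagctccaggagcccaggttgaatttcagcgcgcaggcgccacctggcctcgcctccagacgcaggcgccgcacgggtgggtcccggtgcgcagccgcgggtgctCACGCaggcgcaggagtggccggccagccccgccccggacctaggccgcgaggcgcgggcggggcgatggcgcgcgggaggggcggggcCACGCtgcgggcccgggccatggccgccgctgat
The Serpina1f run held 3 matches, the Cenpj run 0 and the Ehmt1 run 2. Of 32851 promoters of this length 43.8% held at least 1 match, 20.6% at least 2 and 8.93% at least 3. The CpG dinucleotide occurred 6 times in the Serpina1f run, 21 times in that of Cenpj and 34 times in that of Ehmt1, with a median of 7 over all promoters. Thus 43.6% of promoters had fewer CpGs than that of Serpina1f, 75.2% fewer than that of Cenpj and 92.3% fewer than that of Ehmt1. A match is a run of letters, and these counts say nothing of any factor at these starts.

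The 3 genes differ in structure as well. Serpina1f (ENSMUSG00000021081) lies on chromosome 12 from 103688044 to 103695529 (GENCODE M21, GRCm38), and its longest transcript has 5 exons and 2830 bases. Cenpj (ENSMUSG00000064128) lies on chromosome 14 from 56526761 to 56575425, with 18 exons and 4756 bases. Ehmt1 (ENSMUSG00000036893) lies on chromosome 2 from 24789928 to 24919614, with 27 exons and 5953 bases. All are on the minus strand, so each gene starts at its higher coordinate. That coordinate lies within the promoter run printed above for Serpina1f and Ehmt1. For Cenpj it lies outside the run, whose RefSeq start is inside the GENCODE gene. The motif and CpG counts of Cenpj describe that inner start. None of the 3 transcripts shared an exact run of 50 bases with a transcript of another gene, and none was over 90% alike to one over 80% of its length. Ehmt1 was over 90% alike to 2 genes over 50 bases or more. Its longest alignment was to its partner Ehmt2, over 1703 bases at 68.9% identity. The exons of Ehmt1 share 21 bases with the unconfirmed transcript Gm37139 on the same strand. Gm22431, a small RNA gene of unassigned class inside Cenpj on the opposite strand, was listed at 0 in all libraries. The identifiers were matched to this annotation, and the build the authors used was not given in the sources used here.

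Depth was 1320916 to 2141611 fragments counted on genes in OGD/R and 1092724 to 1494499 in control. The entry Gm23935 and the 5 genes over 90% alike to it took 49.6%, 1.97% and 24.5% of these fragments in OGD/R 1, 2 and 3, against 4.34%, 0.561% and 0.303% in control 1, 2 and 3. FPKM divides the fragments of a gene by its length and by the library total, so values as deposited move with that share. Over 44125 tested genes the median log2 fold change was -0.44, on the scale of log2(FPKM + 1). For genes of low level that scale shrinks the fold. All fold changes here are OGD/R over control, in RNA summed over a culture's vesicles, where fewer vesicles of a kind and less RNA in each cannot be told apart.

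Neuronal markers were present but did not stand above those of other cells. For scale, the median coding gene with at least 10 reads in every library had 5.55, 11.6 and 7.91 FPKM in OGD/R 1, 2 and 3. In control 1, 2 and 3 that median was 10.4, 10.5 and 11.6 FPKM. The median of 9 neuronal markers was 5.45 to 13.4 FPKM in OGD/R and 9.30 to 14.6 FPKM in control, with none at 0 in any library, and that of 5 astrocyte markers was 5.26 to 14.6 FPKM in OGD/R and 10.9 to 12.6 FPKM in control. As Serpina1f is known from the epididymis, 11 markers of that tissue were read too. Their sum was 83.6 to 157 FPKM in OGD/R and 225 to 333 FPKM in control, and 6 of the 11 were listed at 0 in at least 1 library. Without the highest of them, Cst8, the sum was 34.2 to 121 FPKM in OGD/R and 101 to 126 FPKM in control, so the groups overlapped, and Cst8 was the only 1 of the 11 with all OGD/R values below all control values. Cst8, an epididymal cystatin, is named after its values were seen. It had 49.4, 36.1 and 46.1 FPKM in OGD/R, against 124, 216 and 167 FPKM in control. It did not pass in limma (log2 fold change -1.90 ± 0.41 SE, adjusted p = 0.430) and passed in limma-voom on recovered reads (adjusted p = 0.0130). In limma-voom without the Gm23935 family it passed as well (log2 fold change -1.54, adjusted p = 0.0367). Of coding genes with at least 10 reads in every library, 15.0% likewise had all OGD/R values below all control values. The sum of 3 endothelial markers was 18.5 to 50.7 FPKM in OGD/R and 44.4 to 88.2 FPKM in control. These markers had a median of 6.23 to 23.0 FPKM in OGD/R and 19.7 to 41.7 FPKM in control. Of these Kdr, a receptor of vascular growth factor, named after its values were seen, had 6.23, 23.0 and 9.84 FPKM in OGD/R, against 24.7, 46.0 and 31.9 FPKM in control. It passed in limma-voom (adjusted p = 0.0191) and not in limma (log2 fold change -1.47 ± 0.53 SE, adjusted p = 0.712) or in limma-voom without the Gm23935 family (adjusted p = 0.126). Pecam1, also endothelial, had 11.3, 24.7 and 9.90 FPKM in OGD/R, against 19.7, 41.7 and 28.8 FPKM in control, with overlap. Cldn5 went the other way on very few reads, at 1.31 ± 1.49 FPKM in OGD/R and 0.325 ± 0.281 FPKM in control (SD, n = 3 each). The sum of 4 microglial markers was 43.7 to 67.0 FPKM in OGD/R and 43.2 to 65.5 FPKM in control, and that of 4 markers of the oligodendrocyte lineage 15.6 to 41.5 FPKM in OGD/R and 26.7 to 42.8 FPKM in control. The sum of 6 hepatocyte markers was 19.6 to 98.6 FPKM in OGD/R and 45.3 to 129 FPKM in control, with 2 listed at 0 in at least 1 library. The sum of 5 markers of dividing cells was 20.4 to 47.1 FPKM in OGD/R and 51.4 to 60.2 FPKM in control, with none at 0. Sums over different numbers of markers cannot be set against each other or against the medians. No tested marker passed in limma, and the part of other cells in the levels of the 3 genes was not tested.

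Serpina1f had 20.6, 45.7 and 32.1 FPKM in OGD/R 1, 2 and 3, against 88.9, 179.8 and 113 FPKM in control 1, 2 and 3. These values rest on 125, 187 and 120 reads in OGD/R and on 275, 719 and 477 reads in control. The highest OGD/R library was OGD/R 2 and the highest control library control 2, and the lowest control value was 1.95 times the highest OGD/R value. The group means were 32.8 ± 12.6 FPKM in OGD/R and 127 ± 47.1 FPKM in control (SD, n = 3 each), with a log2 fold change of -1.93 ± 0.46 SE. The smallest count, 120 reads in OGD/R 3, has an exact Poisson interval of 99.5 to 143 (95%, counting error only).

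Cenpj had 28.9, 53.2 and 43.6 FPKM in OGD/R 1, 2 and 3, against 91.8, 255 and 111 FPKM in control 1, 2 and 3. The reads were 294, 366 and 274 in OGD/R and 477, 1715 and 786 in control. Control 2 stood 2.78 times above control 1, the widest ratio within a group among the 3 genes. The means were 41.9 ± 12.3 FPKM in OGD/R and 152 ± 89.4 FPKM in control (SD, n = 3 each), with a log2 fold change of -1.73 ± 0.51 SE. Without control 2 it was -1.29. The groups did not overlap, and the lowest control value was 1.72 times the highest OGD/R value.

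Ehmt1 had 18.2, 43.1 and 26.5 FPKM in OGD/R 1, 2 and 3, against 59.5, 90.4 and 69.2 FPKM in control 1, 2 and 3. The reads were 232, 371 and 208 in OGD/R and 387, 761 and 616 in control. Its groups stood closest together, since control 1 was only 1.38 times OGD/R 2 in FPKM and 387 against 371 in reads. The means were 29.3 ± 12.7 FPKM in OGD/R and 73.1 ± 15.8 FPKM in control (SD, n = 3 each), with a log2 fold change of -1.35 ± 0.44 SE.

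**Figure D1:**
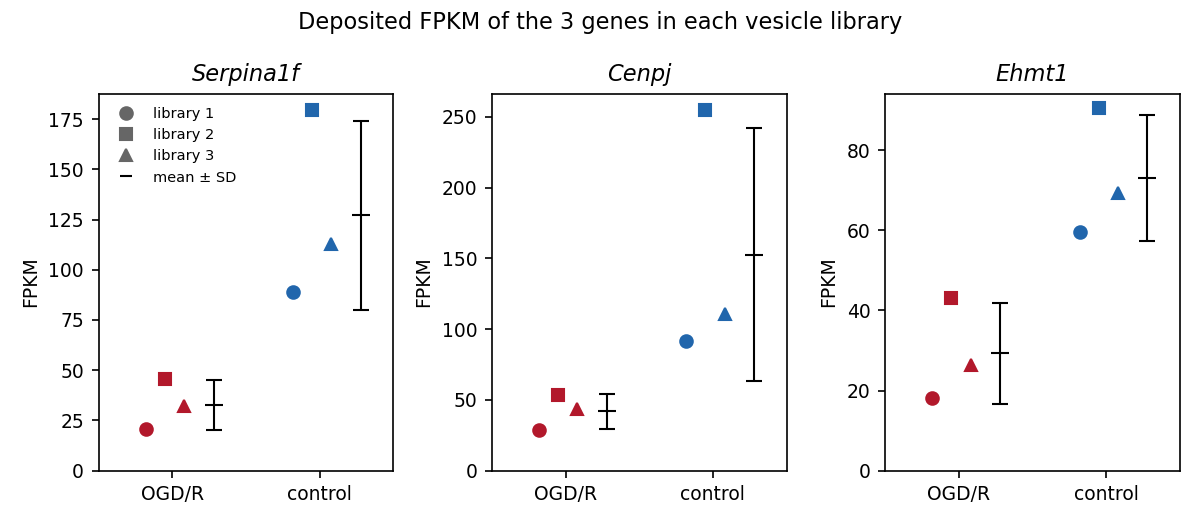
Deposited FPKM of each gene (y axis, linear from 0) in the 3 OGD/R and 3 control libraries, with library numbers as symbols and the mean ± SD beside them. Control 2 is highest for each gene, at 179.8, 255 and 90.4 FPKM, and OGD/R 1 is lowest, at 20.6, 28.9 and 18.2 FPKM.

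The genes were chosen on this contrast, so these differences describe them and are not tested. In limma 0 of the 3 genes passed the adjusted threshold of 0.05, where 0.0159% of all tested genes were called. In limma-voom on recovered reads 3 of 3 passed, where 0.546% were called, and likewise in limma-voom without Gm23935 and its 5 relatives, where 0.142% were called. Nothing is read from these counts, since the rule used this contrast. By direction, limma called 0.0136% of genes lower and 0.00227% higher, limma-voom 0.505% lower and 0.0401% higher, and limma-voom without that family 0.0945% lower and 0.0472% higher. At an unadjusted p under 0.05 limma had 6.76% of genes, 6.13% lower and 0.635% higher. Centred on library medians it had 3.16% lower and 2.55% higher. At the same level limma-voom had 11.3% lower and 0.368% higher, and without the family 4.90% lower and 2.23% higher. Non-overlap of the groups was common. Of 11178 protein-coding genes with at least 10 reads in every library, 15.0% had all OGD/R values below all control values and 0.573% had them above. Among 709 such genes with at least 100 reads in every library the lower share was 26.8%.

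Of the 1673 genes that met the rule at 10 reads, Serpina1f ranked 11th by the ratio of group means, Cenpj 18th and Ehmt1 201st. By their smallest read count Cenpj ranked 9th, Ehmt1 26th and Serpina1f 119th. Among the 190 with at least 100 reads Serpina1f and Cenpj had ranks 1 and 2 by ratio and Ehmt1 rank 16. At the edge of the rule, Gramd1c was just inside, with 43.9 FPKM in its highest OGD/R library and 44.0 FPKM in its lowest control library. Unc13a was just outside, with 14.50 FPKM in its highest OGD/R library and 14.49 FPKM in its lowest control library.

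**Figure D2:**
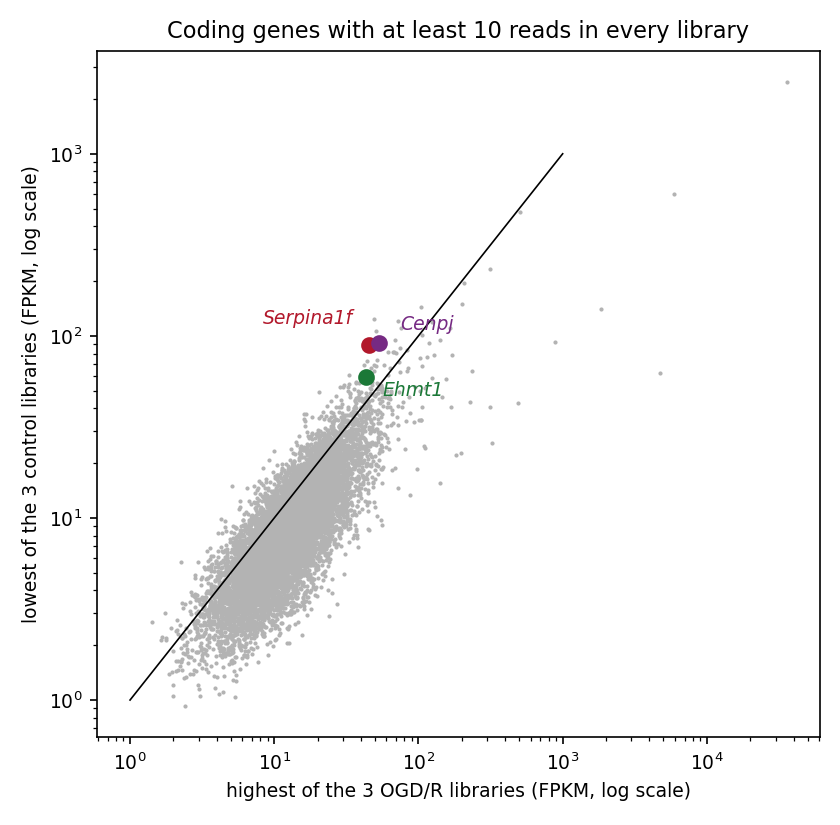
Highest OGD/R value (x axis) against lowest control value (y axis), both in FPKM on log scales, for the 11178 protein-coding genes with at least 10 reads in every library; points above the line have groups that do not overlap. Serpina1f (45.7 and 88.9 FPKM), Cenpj (53.2 and 91.8 FPKM) and Ehmt1 (43.1 and 59.5 FPKM) lie above the line. By the ratio of lowest control to highest OGD/R value they rank 25, 60 and 306 of the 1673 genes above it.

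The transcripts were among the most abundant coding entries per length in the vesicles. The rule also asked for many reads in every library, so these ranks follow in part from the choice of genes. Cenpj ranked 183rd, 89th and 166th of 20333 protein-coding genes by FPKM in OGD/R 1, 2 and 3, against 68th, 8th and 22nd in control 1, 2 and 3. Serpina1f ranked 455th, 158th and 347th in OGD/R, against 72nd, 19th and 20th in control. Ehmt1 ranked 628th, 186th and 568th in OGD/R, against 188th, 84th and 69th in control. At most 3.08% of coding genes stood above any of the 3 in an OGD/R library, and at most 0.920% in a control library. Their order by level differed between libraries: Cenpj was above Serpina1f in OGD/R 1, 2 and 3 and in control 1 and 2 but not in control 3, and Ehmt1 was lowest in all 6.

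On scales that do not depend on the Gm23935 share the OGD/R libraries drew together. In RPM, reads scaled to a common library total with that family left out, Cenpj had 272, 258 and 275 in OGD/R, against 456, 1220.2 and 528 in control. Its coefficient of variation in OGD/R was 3.30% on this scale and 29.3% in FPKM, and in control 57.4% and 58.6%. Serpina1f had 116, 132 and 120.3 RPM in OGD/R, against 263, 512 and 320.1 in control. Ehmt1 had 215, 262 and 208 RPM in OGD/R, against 370.2, 541 and 413 in control. The groups of all 3 genes stayed apart on this scale, where 6.56% of the 11178 coding genes had all OGD/R values lower and 5.66% had them higher.

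As a ratio to the median coding gene of the same library, Serpina1f stood at 3.72, 3.95 and 4.06 in OGD/R, against 8.53, 17.1 and 9.71 in control. Cenpj stood at 5.20, 4.60 and 5.51 times that median in OGD/R, against 8.80, 24.2 and 9.52 times in control. Ehmt1 stood at 3.28, 3.72 and 3.34 times in OGD/R, against 5.70, 8.59 and 5.96 times in control. With each library centred on its median the log2 fold changes were -1.48 ± 0.37 SE for Serpina1f, -1.28 ± 0.46 SE for Cenpj and -0.90 ± 0.31 SE for Ehmt1. On that scale 5.46% of the coding genes had all OGD/R values lower and 6.26% had them higher.

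**Figure D3:**
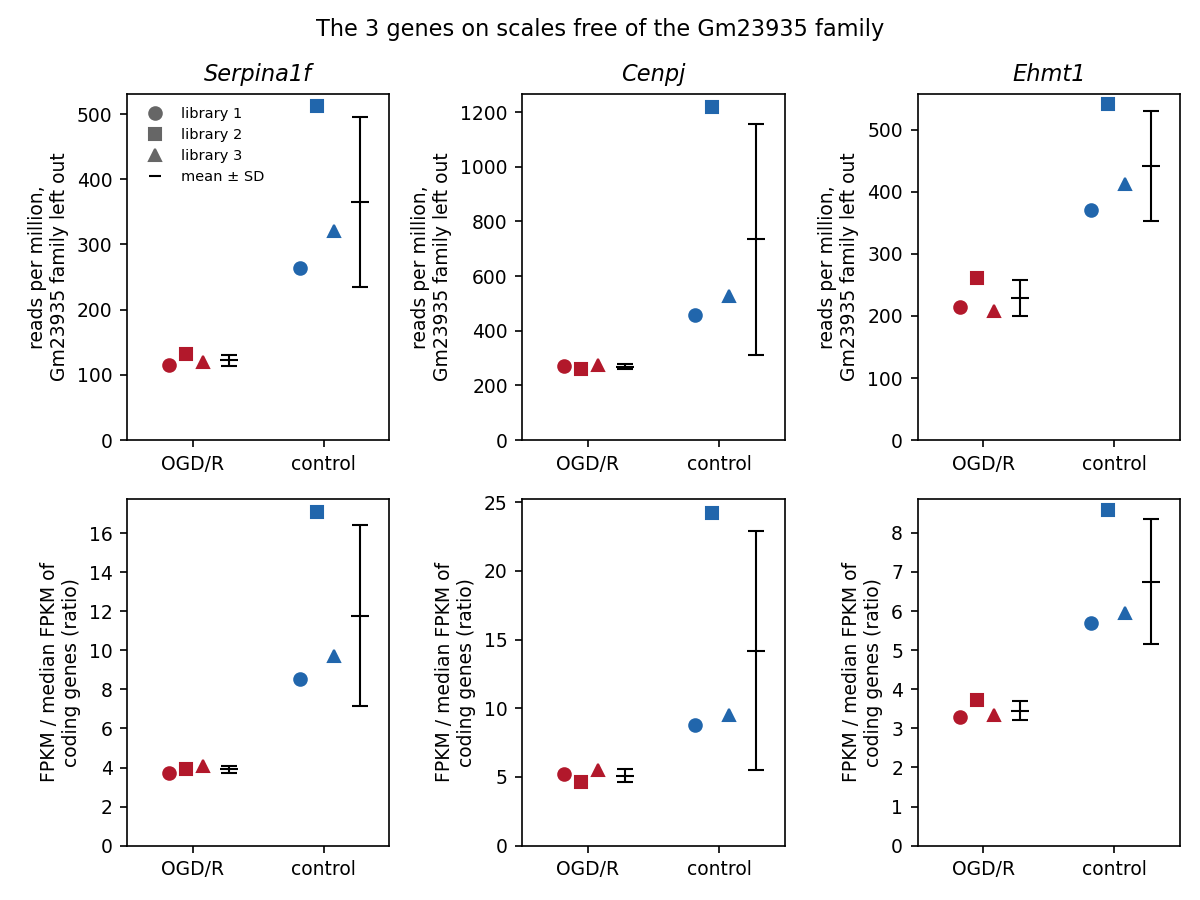
The 3 genes in RPM (reads scaled to a common library total) with the Gm23935 family left out (upper row) and as the ratio of FPKM to the median of coding genes (lower row), OGD/R left and control right, symbols for library numbers, mean ± SD beside them. The OGD/R libraries lie close together (Cenpj 258 to 275 RPM), while control 2 stands above the other control libraries for each gene.

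The ratio of Serpina1f to Ehmt1 was 1.13, 1.06 and 1.21 in OGD/R, against 1.49, 1.99 and 1.63 in control. Every OGD/R library lay below every control library in this ratio, which needs no library total. Both genes were chosen on this contrast, so the ratio describes them. The share of other gene pairs set apart like this was not counted. The ratio of Cenpj to Serpina1f was 1.40, 1.16 and 1.36 in OGD/R, against 1.03, 1.42 and 0.98 in control, and these groups overlapped. The ratio of Cenpj to Ehmt1, at 1.59, 1.23 and 1.65 in OGD/R and 1.54, 2.82 and 1.597 in control, overlapped as well.

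Likeness of pattern was measured as Pearson's r of log2(FPKM + 1), each library centred on its median, over the 6 libraries, among coding genes with at least 10 reads in every library. Ehmt1 was nearest to Serpina1f among 11177 others but for Tbl2 (r = 0.995 for both), and Serpina1f was the nearest gene to Ehmt1. Cenpj stood further off, with r = 0.965 to Serpina1f, where it ranked 28th, and r = 0.951 to Ehmt1, where it ranked 47th. The nearest genes to Cenpj were Uck2 (r = 0.989), a uridine-cytidine kinase, Xirp2 (r = 0.989), an actin-binding protein of muscle, and Dio2 (r = 0.987), which activates thyroid hormone. Gm9195 followed for Serpina1f (r = 0.989), and Pced1a and Tbl2 followed for Ehmt1 (r = 0.991 and 0.988). Tbl2 had 2.37, 6.93 and 4.15 FPKM in OGD/R, against 8.68, 15.4 and 11.97 FPKM in control, so a like pattern did not need a high level. These correlations share their libraries, rest on 6 points and were chosen as the highest of many. Between the 3 genes they are largely set by the rule, which asked for the same order of the groups.

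Among the clade A serpins of its cluster, Serpina1f, which was chosen for its many reads, had the highest level in every library. The other 23 listed genes of its cluster on chromosome 12 had at most 17.6 FPKM in any library (Serpina6, which binds corticosteroids in blood), and 13 of them were listed at 0 in at least 1 library. Serpina1f was 4.42 times the highest other group mean in OGD/R (7.42 FPKM, Serpina3i) and 14.1 times that in control (9.01 FPKM, Serpina6). Its neighbours were low too. Serpina16 had 3.25, 2.19 and 2.39 FPKM in OGD/R, against 1.16, 1.79 and 3.38 FPKM in control, and Serpina1b had 2.65, 7.07 and 0.859 FPKM in OGD/R, against 0, 4.82 and 4.56 FPKM in control. The copies that make alpha-1-antitrypsin in mice, Serpina1a to Serpina1e, had group means of 0 to 3.53 FPKM in OGD/R and 1.06 to 3.13 FPKM in control, and since these copies resemble each other their single values are uncertain. Serpina3n, an acute-phase serpin of astrocytes, had 0, 6.03 and 2.93 FPKM in OGD/R, against 5.76, 3.43 and 3.24 FPKM in control. Of 21 tested genes of the cluster 0 passed in limma (1 lower and 0 higher at an unadjusted p under 0.05; 0 in limma-voom), and the median log2 fold change was -0.19.

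**Figure D4:**
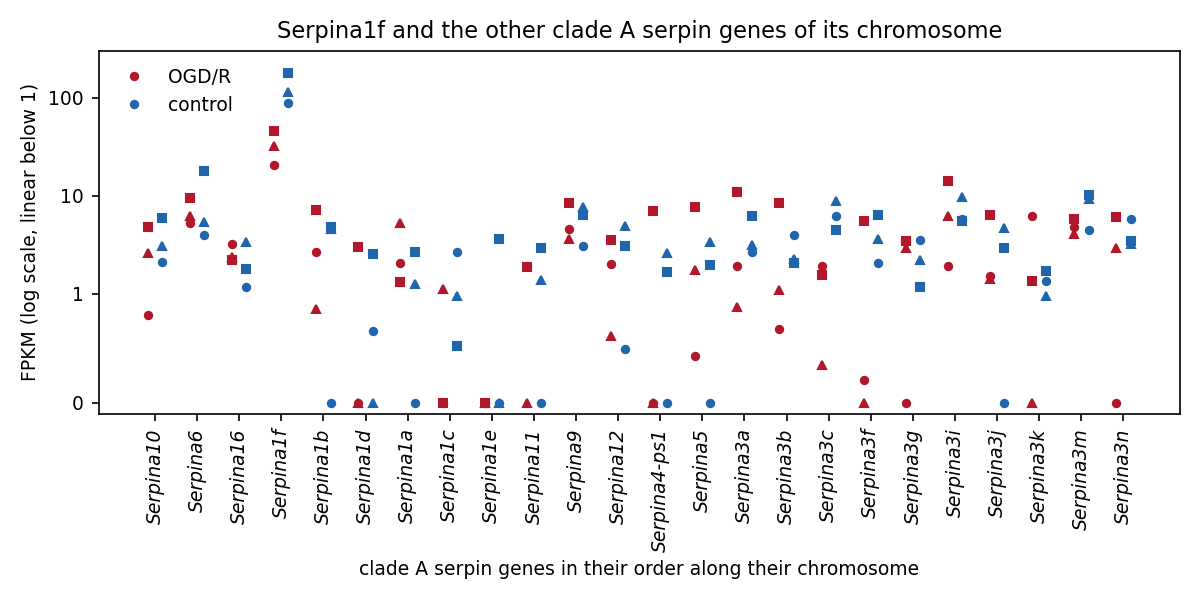
FPKM (y axis, log scale, linear below 1) of Serpina1f and 23 other clade A serpin genes in their order along chromosome 12, OGD/R left and control right of each position, 1 symbol per library. Serpina1f lies at 20.6 to 179.8 FPKM, and the other genes lie at 0 to 17.6 FPKM.

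The smallest p among the cluster was that of Serpina3c, with 1.90, 1.56 and 0.342 FPKM in OGD/R and 6.20, 4.48 and 8.77 FPKM in control (log2 fold change -1.76 ± 0.61 SE, limma adjusted p = 0.708). Its reads were few, 9, 5 and 1 in OGD/R and 15, 14 and 29 in control. Serpina3f came next (-1.23 ± 0.88 SE, adjusted p = 0.780). Of 23 tested serpins outside that cluster, of other clades but for the clade A gene Serpina7, 0 passed (1 lower and 0 higher at an unadjusted p under 0.05; 0 in limma-voom), with a median log2 fold change of -0.53. Serpind1, heparin cofactor II of blood clotting, had 9.70 ± 1.51 FPKM in OGD/R and 22.4 ± 4.08 FPKM in control (SD, n = 3 each). Serping1, the C1 inhibitor of complement, had 8.47 ± 2.33 FPKM in OGD/R and 3.46 ± 0.76 FPKM in control, with all OGD/R libraries above all control libraries and an adjusted p of 0.720 in limma. It had few reads, 22, 26 and 22 in OGD/R and 5, 10 and 10 in control. Among coding genes with at least 10 reads in every library, a set without Serping1, 0.573% had all OGD/R values above all control values. With each library centred on its median that share was 6.26%. The serpins best known in neurons were Serpini1 (neuroserpin), at 3.90 ± 1.17 FPKM in OGD/R and 5.16 ± 1.96 FPKM in control, and Serpine2 (nexin), at 11.1 ± 3.40 FPKM in OGD/R and 17.6 ± 4.08 FPKM in control (SD, n = 3 each). Of 8 tested proteases that alpha-1-antitrypsin inhibits 0 passed (1 lower and 0 higher at an unadjusted p under 0.05; 0 in limma-voom), with a median of -0.71. Ctsg, cathepsin G of neutrophils, had 3.92 ± 3.99 FPKM in OGD/R and 14.0 ± 8.23 FPKM in control, and Klk14, a kallikrein, 3.76 ± 5.28 FPKM in OGD/R and 7.92 ± 4.05 FPKM in control (SD, n = 3 each). Ctsg had 1, 12 and 4 reads in OGD/R and 6, 31 and 22 in control. Klk14 had 4, 18 and 0 reads in OGD/R and 13, 6 and 21 in control.

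The partners of Cenpj were several times less abundant than Cenpj, which was chosen for its many reads. Plk4, the kinase that starts a new centriole, had 1.07, 14.9 and 6.96 FPKM in OGD/R, against 5.79, 9.36 and 8.85 FPKM in control. Stil, which binds Cenpj and recruits Sass6, had 3.94 ± 2.46 FPKM in OGD/R and 5.76 ± 1.42 FPKM in control, and Sass6, which forms the cartwheel of the new centriole, 4.73 ± 3.30 FPKM in OGD/R and 9.35 ± 4.05 FPKM in control (SD, n = 3 each). Cep152, the scaffold that receives Plk4, had 6.72, 7.32 and 4.86 FPKM in OGD/R, against 12.1, 17.3 and 12.6 FPKM in control. Its groups did not overlap as deposited, where 15.0% of coding genes had all OGD/R values lower. With each library centred on its median they overlapped. Cep152 did not pass in limma (log2 fold change -1.04 ± 0.42 SE, adjusted p = 0.720). Cep135 (9.92 ± 5.39 FPKM in OGD/R and 11.6 ± 4.59 FPKM in control) and Cep120 (9.13 ± 3.74 FPKM in OGD/R and 15.5 ± 3.72 FPKM in control), both needed for centriole elongation, had overlapping groups. Ppp1r35, a centriole protein, had 3.91, 5.06 and 8.71 FPKM in OGD/R, against 0, 0.740 and 2.10 FPKM in control, the opposite order to Cenpj (1.91 ± 0.69 SE, adjusted p = 0.712). That order rests on only 8, 7 and 11 reads in OGD/R and 0, 1 and 3 reads in control.

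Of 26 tested centriole assembly genes other than Cenpj 0 passed in limma (1 lower and 1 higher at an unadjusted p under 0.05; 0 in limma-voom), with a median log2 fold change of -0.36 beside -0.44 over all genes. Of the 18 with at least 10 reads in every library 4 had all OGD/R values below all control values, beside 15.0% of coding genes. With each library centred on its median 0 of the 18 did, beside 5.46%. Of 20 tested genes of the pericentriolar material and of microtubule nucleation 0 passed (2 lower and 0 higher at an unadjusted p under 0.05; 0 in limma-voom), with a median of -0.57, and 6 of the 16 with at least 10 reads were lower in every OGD/R library, beside 15.0% of coding genes. After the same centring 1 of the 16 was lower in every OGD/R library, beside 5.46% of coding genes. Haus6, an augmin subunit, had 16.2, 31.1 and 27.0 FPKM in OGD/R, against 47.1, 62.4 and 36.7 FPKM in control (-0.97 ± 0.42 SE, adjusted p = 0.720). Ninl, a protein of the centrosome, had 5.90 ± 1.51 FPKM in OGD/R and 12.4 ± 0.64 FPKM in control (SD, n = 3 each). Pcnt, the pericentrin scaffold, had 6.59 ± 2.48 FPKM in OGD/R and 9.77 ± 0.99 FPKM in control, Cdk5rap2 7.40 ± 2.95 FPKM in OGD/R and 13.5 ± 2.75 FPKM in control, and Tubg1, gamma-tubulin, 7.77 ± 5.82 FPKM in OGD/R and 11.2 ± 5.01 FPKM in control (SD, n = 3 each).

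Of 27 tested primary microcephaly genes other than Cenpj 0 passed (3 lower and 0 higher at an unadjusted p under 0.05; 0 in limma-voom), with a median of -0.57. Of the 24 with at least 10 reads 7 were lower in every OGD/R library, beside 15.0% of coding genes, and 3 were so with each library centred on its median, beside 5.46%. Nup37, of the nuclear pore, had 7.09, 7.64 and 6.80 FPKM in OGD/R, against 15.2, 19.5 and 14.3 FPKM in control (-1.07 ± 0.40 SE, adjusted p = 0.720). The neighbours of Cenpj on chromosome 14 did not share its level: Parp4, which starts 194 bases beyond it on the opposite strand, had 3.22, 7.91 and 5.45 FPKM in OGD/R, against 5.44, 6.65 and 6.60 FPKM in control, and Rnf17 had 3.02, 11.96 and 5.47 FPKM in OGD/R, against 8.17, 9.41 and 9.41 FPKM in control.

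Ehmt2, with which Ehmt1 forms its enzyme complex, did not follow Ehmt1. It had 13.7, 10.3 and 11.5 FPKM in OGD/R, against 15.7, 10.5 and 10.3 FPKM in control (log2 fold change -0.02 ± 0.40 SE, limma adjusted p = 0.992). Ehmt1 was thus above Ehmt2 in all 6 libraries, in FPKM. Of the zinc finger proteins that hold the pair on chromatin, Zfp644 had 8.21, 9.95 and 11.0 FPKM in OGD/R, against 19.7, 22.7 and 17.0 FPKM in control, without overlap (-0.96 ± 0.38 SE, adjusted p = 0.720). Wiz, the other, had 5.67, 7.86 and 10.4 FPKM in OGD/R, against 14.1, 9.91 and 10.8 FPKM in control, with overlap (-0.51 ± 0.43 SE, adjusted p = 0.798). The groups of Zfp644 stood apart only as deposited, where 15.0% of coding genes had all OGD/R values lower. With each library centred on its median the groups of Zfp644 overlapped.

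The other H3K9 methyltransferases were also below Ehmt1, which was chosen for its many reads. Setdb1 had 7.29 ± 3.10 FPKM in OGD/R and 6.01 ± 3.39 FPKM in control, Suv39h1 10.3 ± 2.90 FPKM in OGD/R and 16.6 ± 10.8 FPKM in control, and Suv39h2 1.62 ± 1.64 FPKM in OGD/R and 2.92 ± 2.14 FPKM in control (SD, n = 3 each). Cdyl, a chromodomain protein that binds methylated H3K9 and Ehmt2, had 16.7, 28.1 and 29.9 FPKM in OGD/R, against 52.2, 72.4 and 53.7 FPKM in control, without overlap (-1.25 ± 0.40 SE, adjusted p = 0.663). Of 18 tested H3K9 methyltransferases and cofactors other than Ehmt1 0 passed (2 lower and 0 higher at an unadjusted p under 0.05; 0 in limma-voom), with a median of -0.46. Of the 16 with at least 10 reads 3 were lower in every OGD/R library, a share near the 15.0% of coding genes. With each library centred on its median 1 of the 16 was, beside 5.46%.

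Of the HP1 proteins, which read the mark, Cbx1 had 14.5, 15.4 and 6.69 FPKM in OGD/R, against 17.3, 25.6 and 22.0 FPKM in control, without overlap (-0.84 ± 0.45 SE, adjusted p = 0.738). This held as deposited, where 15.0% of coding genes had all OGD/R values lower. With each library centred on its median the groups of Cbx1 overlapped. Cbx3 had 16.3 ± 3.15 FPKM in OGD/R and 18.8 ± 10.4 FPKM in control, and Cbx5 5.10 ± 2.41 FPKM in OGD/R and 5.25 ± 1.36 FPKM in control (SD, n = 3 each), both with overlap. Of 9 tested readers 0 passed (0 in either direction at an unadjusted p under 0.05; 0 in limma-voom), with a median of -0.25; Spin1 was at 13.7 ± 5.28 FPKM in OGD/R and 26.2 ± 4.93 FPKM in control (SD, n = 3 each). Of 12 tested H3K9 demethylases 0 passed (1 lower and 0 higher at an unadjusted p under 0.05; 0 in limma-voom), with a median of -0.35. Kdm4d had 2.08, 6.67 and 1.97 FPKM in OGD/R, against 8.49, 12.9 and 13.2 FPKM in control (-1.58 ± 0.55 SE, adjusted p = 0.712), and Phf2 7.55 ± 5.29 FPKM in OGD/R and 15.2 ± 1.22 FPKM in control (SD, n = 3 each).

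Of 13 tested genes of the E2F6 and PRC1.6 complex, in which Ehmt1 was found in human cells, 0 passed (0 in either direction at an unadjusted p under 0.05; 0 in limma-voom), with a median of -0.25. L3mbtl2, its reader subunit, had 10.9 ± 5.37 FPKM in OGD/R and 18.6 ± 2.28 FPKM in control, and the deacetylase Hdac1 had 14.1 ± 8.06 FPKM in OGD/R and 26.8 ± 15.9 FPKM in control (SD, n = 3 each). Of 30 tested chromatin genes of intellectual disability syndromes 0 passed (1 lower and 0 higher at an unadjusted p under 0.05; 0 in limma-voom), with a median of -0.41. The acetyltransferase Ep300 had 6.88, 13.0 and 9.97 FPKM in OGD/R, against 17.5, 23.7 and 19.7 FPKM in control, and the H3K36 methyltransferase Setd2 had 9.28 ± 2.91 FPKM in OGD/R and 19.6 ± 7.27 FPKM in control (SD, n = 3 each); neither passed (adjusted p = 0.720 for both, limma). Near Ehmt1, the calcium channel gene Cacna1b had 14.8, 19.2 and 16.7 FPKM in OGD/R, against 25.7, 15.8 and 16.6 FPKM in control, and Arrdc1 had 0.561 to 4.54 FPKM in OGD/R and 1.70 to 4.02 FPKM in control. The unconfirmed transcripts inside Ehmt1 on its strand, Gm37139 (10.6, 14.6 and 17.5 FPKM in OGD/R, against 22.8, 8.49 and 14.8 FPKM in control) and Gm38147 (9.09, 18.1 and 10.1 FPKM in OGD/R, against 24.4, 15.7 and 9.30 FPKM in control), had overlapping groups.

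The list medians move with the scaling. With each library centred on its median, log2 fold changes were below 0 in 4 of 21 clade A serpins, 12 of 26 centriole assembly genes, 17 of 27 microcephaly genes and 9 of 18 H3K9 methyltransferases and cofactors. As deposited they were below 0 in 15, 21, 25 and 15 of the same genes.

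**Figure D5:**
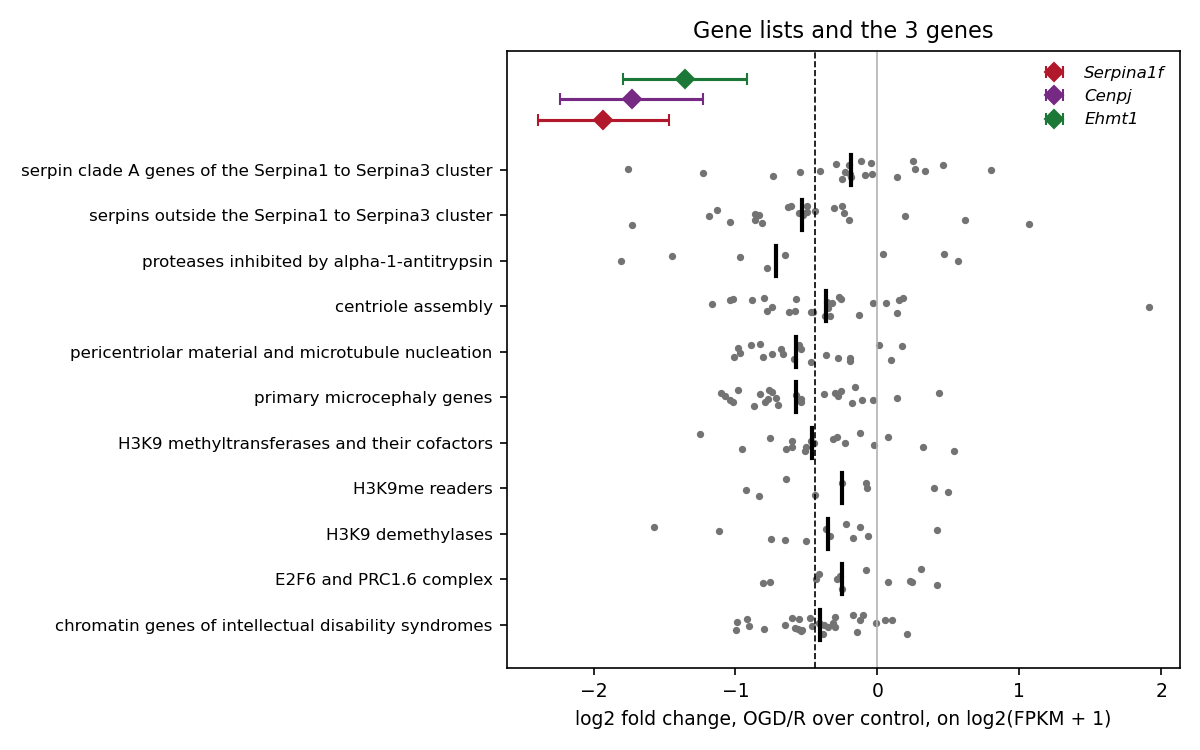
Log2 fold changes (x axis, OGD/R over control, on log2(FPKM + 1)) of the tested genes of 11 lists, with list medians as bars, the median of all 44125 tested genes as the dashed line (-0.44) and the 3 genes as diamonds with SE on top. List medians lie between -0.71 and -0.19, while Serpina1f (-1.93), Cenpj (-1.73) and Ehmt1 (-1.35) were chosen for low values.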

How the data were processed

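RNA of vesicles was sequenced in 6 libraries, 3 per group, taken from the sample titles. Trizol extraction and the Epi mini longRNA-seq kit of Epibiotek are named per the labels' protocols. The authors deposited 1 table of FPKM per library; aligner, genome build and gene annotation: not given in the sources used here. Identifiers were matched to GENCODE M21 (53274 of 53379). With the longest transcript's length, 96.0% of values above 0 were whole reads within 0.01 reads, which gave the totals and the reads. Genes averaging 1 FPKM or more were tested with limma 3.58.1 (R 4.3.3) on log2(FPKM + 1), with a trend, two-sided, Benjamini-Hochberg adjusted over all of them; since no label calls the replicates separate cultures, their p-values reflect library-to-library spread alone, which may be technical. limma-voom on recovered reads was an alternative. Families and shared runs were found with blastn 2.17.0, other steps used Python 3.11.15.

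Genes named are Serpina1f, Cenpj and Ehmt1, set partners, the 2 of smallest p in each of 11 lists where none passed, and the 3 genes most alike to each. The members and lists were chosen with earlier results of these data known.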

Additional observations from a re-analysis of the deposited data

How the results depend on the processing

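The log2 fold change stayed below 0 under all 15 alternatives for each gene: -2.20 to -1.44 for Serpina1f, -2.02 to -1.21 for Cenpj and -1.67 to -0.87 for Ehmt1. That of -0.87, under quantile normalization, moved Ehmt1 by more than its spread between replicates; the cause was not tested. The rule itself fixed the sign wherever a single library was left out, since every OGD/R value lay below every control value. Changes of the filter, the trend or the block left the fold changes as they were. The steady sign is therefore no separate support for these genes. The count of 7 called genes was 0 with a pseudocount of 0.1, with no filter, with centring on medians, without a trend and with a replicate block, 231 in limma-voom and 60 there without the Gm23935 family. Leaving out single libraries gave 0 to 71, the 71 without OGD/R 2. No gene of the 11 lists passed under any alternative. Coding genes with all OGD/R values below all control values, 1673 as deposited, were 610 with centring and 733 without the family, and 1839 to 5478 with 1 library left out, where fewer samples make non-overlap easier: 5478 without OGD/R 2 and 3192 without control 1. Deviations of libraries with equal replicate numbers correlated at 0.04, 0.10 and -0.06, and those with unequal numbers at -0.14 to 0.11. Whether libraries of equal number shared a culture or a day was not tested. On the scale without the family the coefficient of variation in OGD/R was 3.30% for Cenpj, 6.81% for Serpina1f and 12.7% for Ehmt1. With 120 to 1715 reads of the 3 genes in each library, the small spread of Cenpj can be counting error. The part of counting error in the wider spread of Ehmt1 was not tested.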
